A study of Mus musculus with 15 samples.

Results

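The genes described here are Nfe2l2, which encodes the transcription factor NRF2, its repressor Keap1, and 8 genes of the antioxidant response that NRF2 is known to control: Gclc, Gclm, Slc7a11, Gsr, Txnrd1, Srxn1, Nqo1 and Hmox1. They were chosen by name, each through the probe sets annotated with that symbol alone, and make up 10 of the 19297 genes in the table. Each of the 10 had exactly 1 such probe set. Their expression was measured on single-colour arrays (Affymetrix Mouse Gene 1.0 ST) in Myc-CaP cells, a mouse prostate cancer line in which Myc is overexpressed, after transfection, selection and growth to confluence.

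The study asked how a mutation in the Twist box, a conserved stretch near the carboxy terminus of the transcription factor Twist1, alters the expression changes that follow Twist1 overexpression. There were 5 groups of 3 arrays, with replicates named A, B and C: cells with vector alone (VEC), with wild-type Twist1 (WT), with the Twist-box mutant F191G, and with the Twist1 forms AQA and DQD, whose changes the labels do not spell out. All groups share the Myc-CaP background, and all but VEC carry an introduced Twist1. The labels do not say whether replicates came from separate cultures or clones, so p-values here reflect only how much these arrays vary, and that variation may be technical.

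In unstressed cells KEAP1 holds NRF2 in the cytoplasm as part of a cullin-based ubiquitin ligase and directs its degradation. Oxidants and electrophiles modify cysteines of KEAP1, NRF2 accumulates in the nucleus, pairs with a small MAF protein and binds antioxidant response elements (AREs) in its target genes. The products of these genes import cystine, make and reduce glutathione, reduce thioredoxin, and break down quinones and haem. Because NRF2 is controlled largely through its stability, the level of Nfe2l2 mRNA does not by itself measure NRF2 activity.

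RefSeq promoters of the mouse build GRCm38.p6, each running from 250 bases before to 50 bases after a start site, were at hand for 7 of the 10 genes, with 9 promoters in all. Hmox1, Gclc and Gsr were not among them, so of the genes with a call below only Txnrd1 has a promoter shown. The ARE core, searched as TGACNNNGC on both strands, was found in 4 of the 9 promoters and in 12.4% of the 32851 promoters of the table. The 4 were those of Nfe2l2, Srxn1 and Gclm and 1 promoter of Txnrd1, whose other promoters had no match. An element bound by ATF4, a transcription factor of amino acid stress, was searched as TGATGNAA and found in 1 of the 9 and in 3.97% of all. The AP-1 element TGANTCA, which can share letters with an ARE, was found in 1 of the 9 and in 7.81% of all. The E-box CANNTG, the letters that basic helix-loop-helix factors such as Twist1 bind, was found in 5 of the 9 and in 72.3% of all. The stretches below, shown for the letters of the elements named, are on the strand of the gene, with the match in capitals: the ARE core read from the opposite strand in Txnrd1 (chr10:82859094-82859142, plus strand) and Gclm (chr3:122245403-122245451, plus strand), a pair of AP-1 matches in Srxn1 (chr2:152105402-152105505, plus strand), and a pair of ATF4 matches, 1 on each strand, in Slc7a11 (chr3:50443633-50443699, minus strand). A match describes these letters and is not a measured binding site.
Txnrd1: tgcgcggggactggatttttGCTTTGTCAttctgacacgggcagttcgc
Gclm: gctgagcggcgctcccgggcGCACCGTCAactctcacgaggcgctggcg
Srxn1: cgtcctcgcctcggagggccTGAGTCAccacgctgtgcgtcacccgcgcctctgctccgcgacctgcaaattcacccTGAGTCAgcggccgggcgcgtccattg
Slc7a11: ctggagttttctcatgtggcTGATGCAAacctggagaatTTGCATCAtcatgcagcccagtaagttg

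Values are the deposited log2 values, and differences are log2 differences from limma, called changed when the adjusted p over all 19297 genes was under 0.05. Array medians lay between 6.31 and 6.42, and 1 array stood apart. The lowest correlation between arrays over genes was 0.969, and it was 0.990 without WT replicate A, so values without that array are given beside the results that use WT where it ended a call or moved the value by much. Of 10 independent ways in which arrays can differ within their groups, the deposited values held 8. In every probe set the term for the 2 array batches was 0 to within 5e-09, and a further quantity common to all probe sets had also been removed. The differences below are therefore those left after 2 subtractions whose uncertainty the standard errors (SE) do not carry. Twist1 was 6.43 ± 0.293 in VEC and 6.79 ± 0.056 in WT (SD, n = 3 each). The difference of 0.36 did not pass (SE 0.147, adjusted p = 0.129 by limma), although all WT arrays were above all VEC arrays. In AQA, DQD and F191G Twist1 was 6.68 ± 0.241, 6.78 ± 0.180 and 6.75 ± 0.104, with no call against VEC. The lowest arrays of these 3 groups, 6.41, 6.62 and 6.65, lay below the highest VEC array, 6.71. Among prostate epithelial markers, Krt8 and Hoxb13 were above the median of the array medians, 6.37, and the other 5 measured were below it, Epcam and Cdh1 included. Of 7 fibroblast markers 3 were above it, of 7 markers of blood cells 2, and of 5 endothelial markers 0.

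Over the 10 genes and 8 comparisons, 5 of 80 differences passed the test. Gsr was lower in WT than in VEC, in F191G and in DQD, Txnrd1 was higher in DQD than in WT, and Hmox1 was lower in AQA than in WT. With the second removed quantity as a term, Gsr in F191G against WT and Hmox1 in AQA against WT did not pass. The genes for NRF2, KEAP1, glutathione synthesis, cystine import, sulfiredoxin and NQO1 had no call in any comparison.

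**Figure D1:**
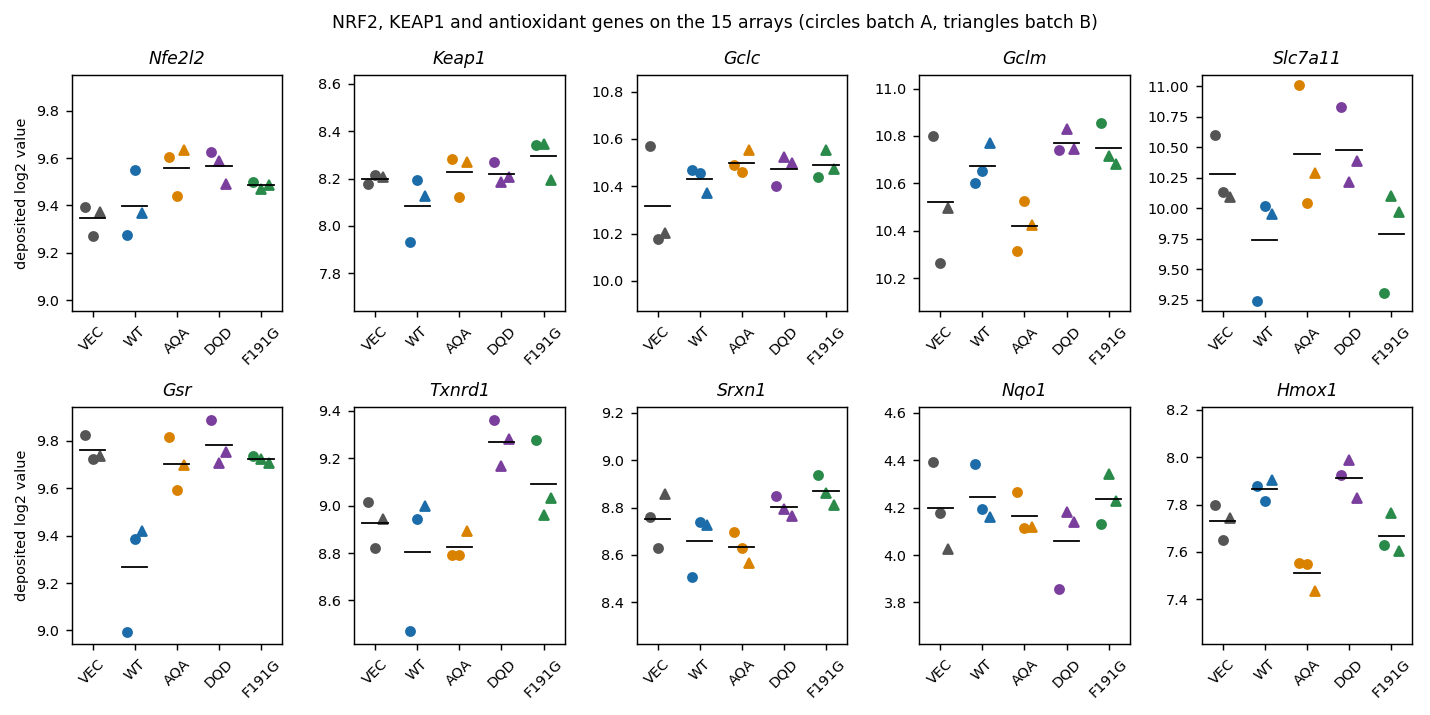
Deposited log2 value (vertical axis) of each of the 10 genes on each of the 15 arrays, by group (horizontal axis), with circles for batch A, triangles for batch B and bars for group means. The 3 WT arrays of Gsr, between 8.995 and 9.42, lie below all other arrays, and the 3 AQA arrays of Hmox1, between 7.43 and 7.55, lie below all others.

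Nfe2l2 varied little. Its values in replicates A, B and C were 9.39, 9.27 and 9.37 in VEC, 9.27, 9.55 and 9.37 in WT, and 9.50, 9.47 and 9.49 in F191G. They were 9.61, 9.44 and 9.64 in AQA and 9.63, 9.59 and 9.49 in DQD. All arrays of F191G, AQA and DQD were above all VEC arrays, whereas WT overlapped VEC. The difference from VEC was 0.22 in DQD (SE 0.0811, adjusted p = 0.131), 0.21 in AQA (SE 0.0792, adjusted p = 0.210), 0.14 in F191G (SE 0.0811, adjusted p = 0.541) and 0.05 in WT (SE 0.0792, adjusted p = 0.753), by limma, and these comparisons share the 3 VEC arrays. Group means ran VEC, WT, F191G, AQA, DQD from low to high, over 0.22 in all, which is close to the median range of group means over all genes, 0.23.

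Keap1, the substrate adaptor that targets NRF2 for degradation, lay between 7.93 and 8.35 on all 15 arrays. WT replicate A held the lowest value, 7.93, and F191G replicate B the highest, 8.35. The mean was 8.08 ± 0.136 in WT and 8.29 ± 0.088 in F191G (SD, n = 3 each), a difference of 0.21 (SE 0.0785, adjusted p = 0.104), and the groups overlapped. The difference was 0.14 without WT replicate A.

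Gclc and Gclm encode the catalytic and the modifier subunit of glutamate-cysteine ligase, the rate-limiting enzyme of glutathione synthesis. Gclc lay between 10.18 and 10.57, and both ends of that range were VEC arrays. Its group means spanned 0.18, less than the spread among the VEC arrays themselves. Gclm read 10.31, 10.53 and 10.42 in AQA, and 10.74, 10.83 and 10.74 in DQD. The DQD arrays were all above the AQA arrays, and the difference of 0.35 did not pass the test (SE 0.115, adjusted p = 0.204). In VEC, Gclm ranged from 10.27 to 10.80 and so covered most of the values of the other groups.

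Slc7a11, the light chain of the cystine/glutamate exchanger that supplies cysteine for glutathione, was the most variable member. Its within-group SD of 0.447 compares with a median of 0.112 over all genes. Replicates A, B and C read 10.60, 10.14 and 10.09 in VEC, 11.01, 10.04 and 10.29 in AQA, and 10.83, 10.21 and 10.39 in DQD. They read 9.24, 10.02 and 9.95 in WT and 9.31, 10.10 and 9.97 in F191G. Replicate A was thus the highest array of VEC, AQA and DQD and the lowest of WT and F191G. All arrays of DQD and AQA were above all arrays of WT, by 0.74 on average for DQD (SE 0.298, adjusted p = 0.0832) and 0.71 for AQA (SE 0.290, adjusted p = 0.151). F191G and WT differed by 0.05 (95% interval -0.59 to 0.69), so this comparison leaves a difference of either sign within its interval. The differences from WT were 0.50 in DQD, 0.45 in AQA and -0.18 in F191G when WT replicate A was left out, none of them called. Between the 2 WT and 2 VEC arrays of batch A the log2 difference was -0.74, and between the 1 and 1 of batch B it was -0.14.

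Gsr encodes glutathione reductase, which uses NADPH to turn oxidised glutathione back into its reduced form. Replicates A, B and C read 9.83, 9.73 and 9.74 in VEC and 8.995, 9.39 and 9.42 in WT. They read 9.74, 9.72 and 9.71 in F191G, 9.82, 9.59 and 9.70 in AQA, and 9.89, 9.71 and 9.75 in DQD. All 3 WT arrays lay below all 12 others, and the remaining groups overlapped one another. WT was lower than VEC by 1.41-fold (log2 difference -0.50, SE 0.102, adjusted p = 0.0123 by limma), in a comparison in which 12.8% of all genes were called. Omitting WT replicate A took that share to 4.37%, and omitting VEC replicate C took it to 0.663%. Gsr was higher in F191G than in WT by 0.46 (SE 0.105, adjusted p = 0.0329), where 7.13% of genes were called (0.777% without WT replicate A). It was higher in DQD than in WT by 0.52 (SE 0.105, adjusted p = 0.0116), where 24.5% were called. In AQA against WT the difference was 0.44 and did not pass (SE 0.102, adjusted p = 0.0548). These contrasts share the WT arrays and are not independent of one another. Against VEC, F191G, AQA and DQD differed by -0.04, -0.06 and 0.02.

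The Gsr differences were smaller without WT replicate A and kept their sign. The log2 difference of WT from VEC was then -0.35 (adjusted p = 0.0273) and that of DQD from WT 0.39 (adjusted p = 0.0157), while F191G against WT, at 0.33, no longer passed (adjusted p = 0.0584). Without VEC replicate C the difference between WT and VEC was -0.51 and did not pass (adjusted p = 0.0662). Within batch A, with 2 arrays of each group, it was -0.59, and within batch B, with 1 array of each, it was -0.31. With the second removed quantity as a term in the model, the calls against VEC (adjusted p = 0.0232) and in DQD (adjusted p = 0.0222) held, and the call in F191G did not (adjusted p = 0.0607).

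Over the 15 arrays the genes whose values followed Gsr most closely were Mipep, a mitochondrial peptidase, and Gstcd, a protein with a glutathione S-transferase carboxy-terminal domain. Pearson's r, taken after each batch's mean was removed, was 0.985 for Mipep and 0.981 for Gstcd. It was 0.958 and 0.948 without WT replicate A, as a description over arrays that share group structure. Mipep was 8.10 ± 0.070 in VEC and 7.73 ± 0.217 in WT, and Gstcd was 8.09 ± 0.098 and 7.65 ± 0.279 (SD, n = 3 each).

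Txnrd1 encodes cytosolic thioredoxin reductase, the enzyme that keeps thioredoxin reduced. Replicates A, B and C read 9.36, 9.17 and 9.28 in DQD and 8.47, 8.94 and 8.999 in WT. They read 9.02, 8.82 and 8.94 in VEC, 8.79, 8.79 and 8.89 in AQA, and 9.28, 8.96 and 9.03 in F191G. All DQD arrays were above all arrays of VEC, WT and AQA, and overlapped F191G. DQD exceeded WT by 0.47 (SE 0.129, adjusted p = 0.0249). The differences of DQD from AQA, 0.44 (SE 0.129, adjusted p = 0.166), and from VEC, 0.34 (SE 0.129, adjusted p = 0.140), did not pass. Without WT replicate A, whose value of 8.47 was the lowest of the 15, DQD against WT was 0.31 (adjusted p = 0.0546), while DQD exceeded AQA by 0.46 (adjusted p = 0.0365) and VEC by 0.36 (adjusted p = 0.0478), both then past the threshold. Without DQD replicate A the difference from WT was 0.40 (adjusted p = 0.135), and without DQD replicate C it was 0.46 (adjusted p = 0.0502).

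Srxn1 encodes sulfiredoxin, which restores overoxidised peroxiredoxins. It lay between 8.51, in WT replicate A, and 8.94, in F191G replicate A. All F191G arrays were above all WT arrays, with a difference of 0.21 (SE 0.0809, adjusted p = 0.109), or 0.14 without WT replicate A. Nqo1, a quinone reductase often used as a readout of NRF2 activity, lay between 3.86 and 4.39 on all arrays, far below the array medians, so its differences carry little information at this signal.

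Hmox1 encodes haem oxygenase 1, which breaks haem down to biliverdin, iron and carbon monoxide. Replicates A, B and C read 7.55, 7.55 and 7.43 in AQA and 7.88, 7.81 and 7.90 in WT. They read 7.80, 7.65 and 7.74 in VEC, 7.92, 7.99 and 7.83 in DQD, and 7.63, 7.76 and 7.61 in F191G. The AQA arrays lay below all 12 others, and Hmox1 had the smallest within-group SD of the 10 genes, 0.080. AQA was lower than WT by 1.28-fold (log2 difference -0.35, SE 0.0688, adjusted p = 0.0455), where 0.726% of all genes were called (0 genes without WT replicate A, 12.5% without WT replicate B). The gap between DQD and AQA was larger, 0.40 (SE 0.0705), and its adjusted p was 0.0612 in a comparison with 5 calls over all genes. F191G was below WT on all arrays, with a difference of -0.20 (SE 0.0705, adjusted p = 0.0885).

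The Hmox1 call in AQA stood near the threshold and 1 array was enough to move it. Without WT replicate A the difference from WT was -0.35 (adjusted p = 0.148), and without AQA replicate A, B or C it was -0.37, -0.37 and -0.30 (adjusted p = 0.197, 0.0349 and 0.228). With the second removed quantity as a term it was -0.35 (adjusted p = 0.0928). Without WT replicate A, DQD exceeded AQA by 0.40 (adjusted p = 0.0322).

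**Figure D2:**
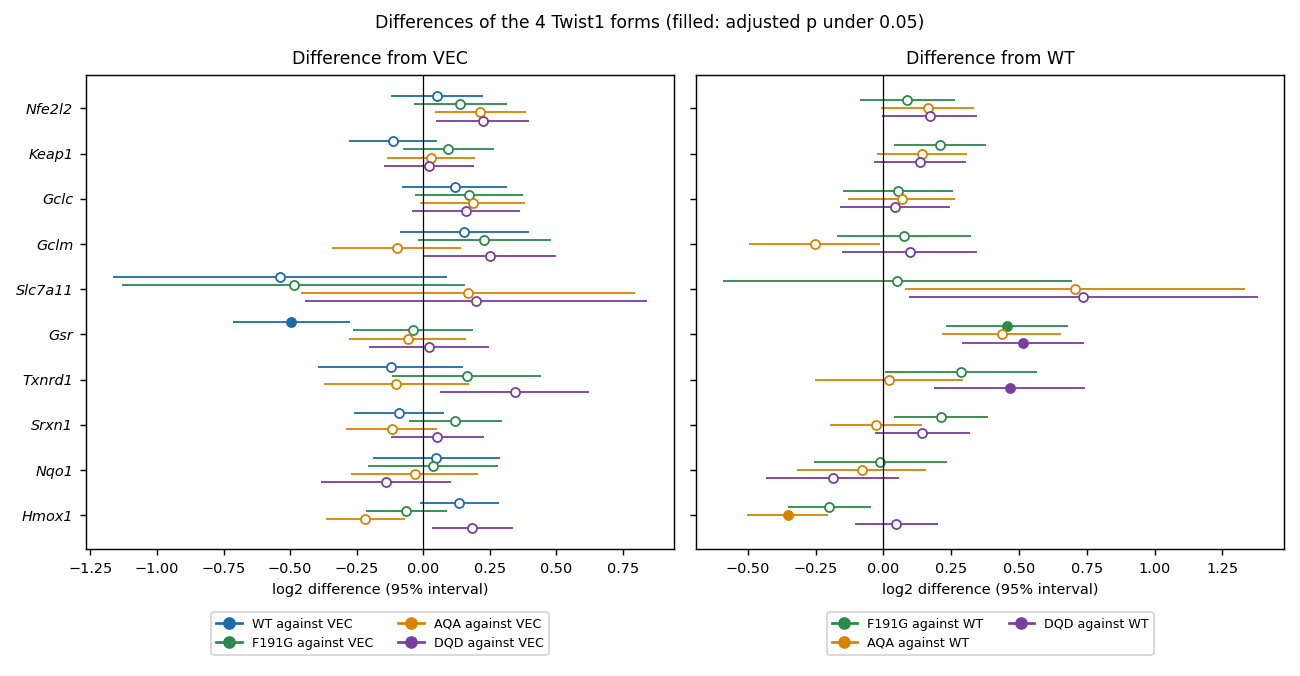
Log2 difference (horizontal axis, points with 95% intervals) of each gene in each Twist1 form from VEC (left) and from WT (right), with filled points for adjusted p under 0.05. Left of zero in the VEC panel only Gsr in WT is filled, at -0.50, and in the WT panel Gsr in F191G and DQD, Txnrd1 in DQD and Hmox1 in AQA are filled.

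Read across the 10 genes, the shares called stood near or below the shares over all genes, apart from AQA against WT. In WT against VEC 1 of the 10 passed, where 12.8% of all genes did, 7.06% of them as higher and 5.72% as lower in WT. In F191G against WT 1 of 10 passed (7.13% of all genes, 3.18% higher and 3.95% lower), in AQA against WT 1 of 10 (0.726% of all genes) and in DQD against WT 2 of 10 (24.5% of all genes, 11.8% higher and 12.8% lower). None passed in F191G, AQA or DQD against VEC by limma, where 0.0985%, 0.881% and 0.814% of all genes were called, or in DQD against AQA, where 0.0259% were. With 10 genes, 1 call is too few to set the members apart from the rest of the table.

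At an unadjusted p under 0.05, the members counted 1 in WT against VEC (27.6% of all genes), 0 in F191G against VEC (11.7%), 2 in AQA against VEC (15.7%) and 4 in DQD against VEC (24%). Against WT they counted 5 in F191G (27.7%), 4 in AQA (25%) and 3 in DQD (40.8%), and they counted 3 in DQD against AQA (14.6%). These shares lay on either side of those over all genes. Groups whose arrays did not overlap were found for 3 members in WT against VEC (31.6% of all genes), 1 in F191G against VEC (21.1%), 2 in AQA against VEC (25.8%) and 3 in DQD against VEC (34.8%). Against WT there were 3 in F191G (34.4%), 4 in AQA (30%) and 4 in DQD (48.2%), and there were 4 in DQD against AQA (27.3%).

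In DQD, 9 of the 10 genes were above VEC, with a median difference of 0.17 against -0.05 over all genes. In F191G 7 of 10 were above VEC (median 0.11 against -0.03), in WT 5 of 10 (median -0.02 against -0.01) and in AQA 4 of 10 (median -0.05 against -0.04). The 4 comparisons share the VEC arrays. The lists described below did not all follow the members in DQD against VEC. Of 30 other NRF2 target genes 11 were above VEC there (median -0.03), and of 27 glutathione enzymes 8 (median -0.06). Of 16 further regulators 12 were above VEC (median 0.07). Centring each array on its median moved the median over all genes in that comparison from -0.05 to 0.03.

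**Figure D3:**
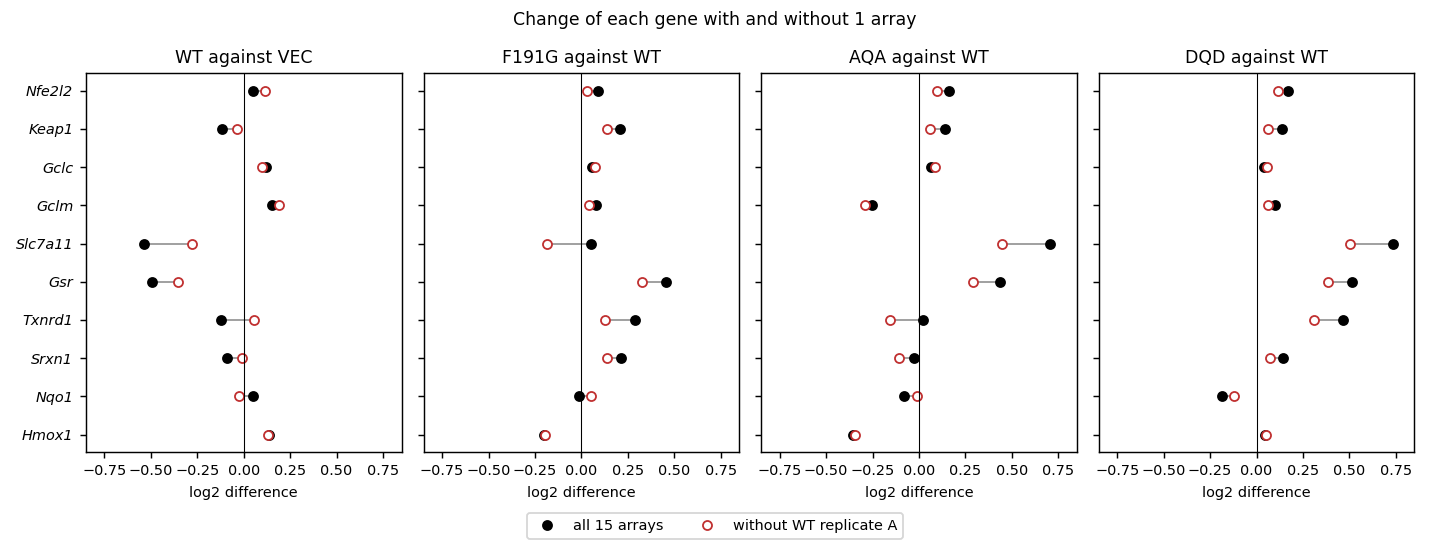
Log2 difference of each gene (horizontal axis) in 4 comparisons that use the WT arrays, with all 15 arrays (black) and without WT replicate A (open red). Gsr moved from -0.50 to -0.35 in WT against VEC, Slc7a11 moved most of the 10 in all 4 comparisons, and Hmox1 in AQA against WT stayed at -0.35.

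WT replicate A was the lowest of the 15 arrays for 5 of the 10 genes. Pearson's r between members over the 15 arrays was taken after each batch's mean was removed, as a description. It was 0.787 for Keap1 and Gsr and 0.480 without that array. It was 0.762 for Txnrd1 and Srxn1 (0.659 without it), 0.679 for Slc7a11 and Gsr (0.480 without it) and 0.636 for Gsr and Txnrd1 (0.330 without it). For Keap1 and Srxn1 it was 0.622 (0.412 without it) and for Gclm and Hmox1 0.609 (0.630 without it). For Gclm and Txnrd1 it was 0.600 (0.755 without it), and all other pairs were lower over the 15 arrays.

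Other genes of the pathway were taken from lists of textbook members, and their counts are read against the shares over all genes given above: 7.06% higher and 5.72% lower in WT against VEC, and 11.8% higher and 12.8% lower in DQD against WT. When WT replicate A was left out, 4.37% of all genes were called in either direction in WT against VEC and 11% in DQD against WT. When VEC replicate C was left out, 0.663% were called in WT against VEC. Lost calls in the lists thus go with lost calls over the whole table. Centring each array on its median moved the median difference over all genes in DQD against WT from -0.07 to 0.04, and the balance of higher and lower calls is given on that scale too.

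Of 16 further regulators of NRF2, 6 were called higher and 1 lower in WT than in VEC, and the list median was 0.14 against -0.01 over all genes. Sqstm1, the autophagy adaptor p62 that competes for KEAP1, rose by 0.75 (adjusted p = 0.0126), and Maff, a small MAF partner, rose by 0.76 (adjusted p = 0.0113). Nfe2l1, a related transcription factor, rose by 0.56 (adjusted p = 0.0135), and Btrc, a ligase adaptor that also targets NRF2, by 0.46 (adjusted p = 0.0140). Without WT replicate A 3 were called, all higher: Maff at 0.58 (adjusted p = 0.0305), Sqstm1 at 0.60 (adjusted p = 0.0409) and Nfe2l1 at 0.43 (adjusted p = 0.0433), while Btrc, at 0.38, was not (adjusted p = 0.0529). Without VEC replicate C limma called 0, with 9 at an unadjusted p under 0.05. In DQD against WT 2 were higher and 5 lower, but 4 higher and 2 lower with median centring, so the list has no settled balance there. Sqstm1 fell by 0.75 in that comparison (adjusted p = 0.0125), and by 0.61 without WT replicate A (adjusted p = 0.0256). In AQA against WT Nfe2l1 fell by 0.59 (adjusted p = 0.0455), a call lost without WT replicate A (-0.46, adjusted p = 0.148) and with the second removed quantity as a term (adjusted p = 0.0928).

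Among 30 other NRF2 target genes, 8 rose with WT relative to VEC and 0 fell, with a list median of -0.01, the same as that of all genes. Gstm1, a glutathione transferase, rose by 0.75 (adjusted p = 0.0387), Pir, an iron-binding nuclear protein, by 0.42 (adjusted p = 0.0450), and Osgin1, an oxidative stress induced growth inhibitor, by 0.36 (adjusted p = 0.0146). Without WT replicate A these read 0.46, 0.27 and 0.29 and limma called 0 of the 30, with 13 at an unadjusted p under 0.05, and without VEC replicate C it also called 0, with 12 unadjusted. With the second removed quantity as a term 3 were called, and with median centring 5 were higher and 2 lower. In DQD against WT 3 were higher and 9 lower, but 6 and 6 with median centring. Gstm1 fell there by 1.06 (adjusted p = 0.0121) and Taldo1, an enzyme of the pentose phosphate pathway, rose by 0.56 (adjusted p = 0.0117). Without WT replicate A these differences read -0.81 and 0.46, and both still passed by limma (adjusted p = 0.0168 and 0.0242). In F191G against WT 1 was higher and 5 lower, and 0 were called without WT replicate A (12 unadjusted) or with the second removed quantity as a term (15 unadjusted).

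Of 27 glutathione enzymes, 2 were higher and 1 was lower with WT than with VEC (list median -0.03), and 4 were higher and 3 lower in DQD than in WT (5 and 1 with median centring), shares near those of all genes. In DQD against WT Glrx3, a monothiol glutaredoxin, rose by 0.85 (adjusted p = 0.0113) and Gstm2 fell by 0.76 (adjusted p = 0.0153). Without WT replicate A these differences read 0.65 and -0.56, and both still passed by limma (adjusted p = 0.0154 and 0.0287). Of 18 thioredoxin and peroxiredoxin genes, 2 rose in WT against VEC (list median 0.02). Sesn3, a sestrin, rose by 0.89 (adjusted p = 0.00534), and by 0.75 without WT replicate A (adjusted p = 0.0129). Sesn1 rose by 0.9999 (adjusted p = 0.0414), and its call was lost without that array (0.63, adjusted p = 0.153) and with the second removed quantity as a term (adjusted p = 0.0600). In DQD against WT 3 of the list were higher and 5 lower (5 and 4 with median centring), and Txnip, the inhibitor of thioredoxin, fell by 1.02 (adjusted p = 0.0190). Without WT replicate A Txnip fell by 0.79, near the threshold by limma (adjusted p = 0.0460). Among 12 superoxide and oxidase genes (list median 0.07), limma called 0 in WT against VEC and the unadjusted p was under 0.05 for 1. In DQD against WT 0 of them were higher and 5 lower, among them Cyba, a subunit of NADPH oxidase, by 0.33 (adjusted p = 0.0119). With median centring 1 was higher and 2 were lower, and without WT replicate A 2 were lower. Several genes of this list had low signal, among them Nox4 at 4.13, Nox1 at 4.34 and Cybb at 4.73 in WT. Differences of such genes carry little information. Cyba, at 6.67 in WT and 6.34 in DQD, lay near the array medians, and Sod1 and Sod2, at 10.99 and 10.52 in WT, well above them.

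Of 18 genes of cystine supply and ATF4, 5 were called higher and 0 lower in WT than in VEC. The list had no common direction: 8 of the 18 lay above VEC, with a list median of -0.003 against -0.01 over all genes. Without a call, mean values were lower in WT than in VEC for Asns (11.06 against 11.30), Psat1 (11.17 against 11.45), Phgdh (9.80 against 10.11) and Shmt2 (10.76 against 11.16). These means lean on WT replicate A. In WT replicates A, B and C Asns read 10.59, 11.32 and 11.28, the last 2 within the VEC range of 11.22 to 11.40. Psat1 read 10.90, 11.35 and 11.25, Phgdh 9.57, 9.93 and 9.90, and Shmt2 10.37, 10.97 and 10.95. Atf4 itself was 8.59 against 8.60. Without WT replicate B 7 of the list were called higher and 3 lower. Atf3, a stress transcription factor, rose by 1.21 (adjusted p = 0.0133), Ddit4, an inhibitor of mTORC1, by 1.08 (adjusted p = 0.0380), Slc6a9, a glycine transporter, by 0.98 (adjusted p = 0.00462) and Cth, which makes cysteine from cystathionine, by 0.58 (adjusted p = 0.00826). Without WT replicate A 3 passed, Atf3 at 0.90, Slc6a9 at 0.85 and Cth at 0.58, while Ddit4, at 0.83, did not (adjusted p = 0.147), and without VEC replicate C 1 passed. Slc7a11, which carries ATF4 matches in its promoter, had no call beside them. Cth and Slc6a9 were also above VEC in AQA, by 0.79 and 0.78, and these were the 2 genes of the list that passed there. With the second removed quantity as a term Cth passed in AQA (adjusted p = 0.0298) and Slc6a9 did not (adjusted p = 0.0704). The other forms had higher Cth too, with a mean of 8.40 for DQD and 8.32 for F191G against 7.81 for VEC. All DQD and F191G arrays of Cth lay above its highest VEC array, 7.99. For Slc6a9 these means were 9.47 and 9.28 against 9.21, and the F191G arrays overlapped those of VEC. Against VEC, limma called 1 gene of the list higher for DQD and 0 for F191G. In DQD against WT 1 of this list was higher and 5 lower, or 3 and 5 with median centring. Of 21 haem and iron genes (list median -0.04), 1 was higher and 3 were lower with WT than with VEC. Slc48a1, a haem transporter, rose by 0.46 (adjusted p = 0.00322), and Tfrc, the transferrin receptor, fell by 0.70 (adjusted p = 0.00817), and both passed without WT replicate A (adjusted p = 0.00955 and 0.0103). In DQD against WT 4 of the haem and iron genes were higher and 1 lower, or 9 and 1 with median centring.

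Some genes used as markers of other cell types, or of prostate epithelium, were also called in these comparisons. In WT against VEC 1 of 7 measured markers of blood cells changed, where 7.06% of all genes were called higher. Cd68, a macrophage marker, was higher by 0.61 (adjusted p = 0.0269 by limma). In DQD against WT 3 of the 7 were lower, Cd68 by 0.57 among them. So were 3 of 7 fibroblast, 1 of 5 endothelial and 1 of 7 prostate epithelial markers, and 0 were higher. Over all genes 12.8% were lower and 11.8% higher there, with a median difference of -0.07, or 0.04 with median centring. The markers were not counted on the centred scale. The mean of the blood cell markers ran from 5.34 to 5.40 over the VEC arrays, from 5.36 to 5.47 over the WT arrays and from 5.24 to 5.30 over the DQD arrays. That of the fibroblast markers ran from 5.70 to 5.75, from 5.73 to 5.81 and from 5.48 to 5.65. That of the endothelial markers ran from 5.41 to 5.44, from 5.40 to 5.46 and from 5.26 to 5.36, and that of the epithelial markers from 6.14 to 6.49, from 6.23 to 6.26 and from 6.04 to 6.12. Ptprc, present on all white blood cells, was 4.67 in VEC. All 15 arrays are of Myc-CaP cells, and most of these markers lay below the median of the array medians, 6.37. Whether any other cells were present, or had a part in the differences above, was not tested.

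**Figure D4:**
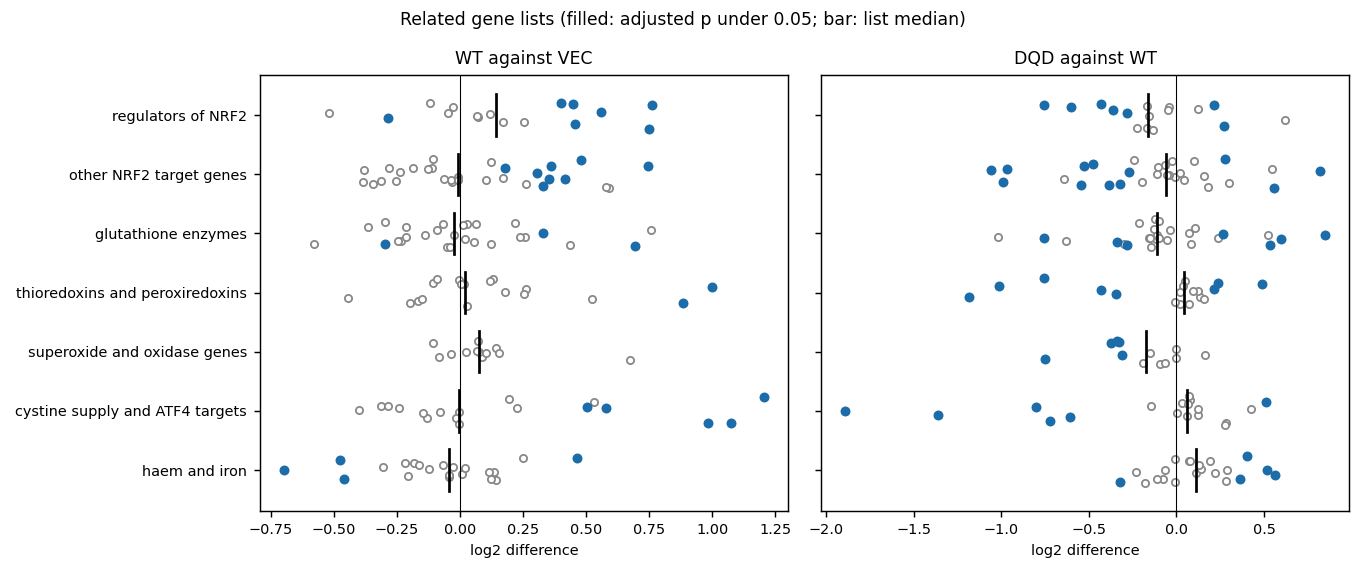
Log2 difference (horizontal axis) of every measured gene of the 7 related lists, by list (vertical axis), in WT against VEC (left) and DQD against WT (right), with filled points for adjusted p under 0.05 and bars for list medians. In WT against VEC the list medians lie between -0.04 and 0.14, with Atf3 at 1.21 and Ddit4 at 1.08 among the highest points.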

How the data were processed

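The 15 arrays of Myc-CaP cells were analysed from 1 deposited table. Its deposited log2 values, 1 for each of 23811 probe sets, came from RMA, which corrects background, equalizes the arrays' quantiles and sums probes into probe sets, and the authors then used limma, per the submitters' processing notes. Neither has its version given in the sources used here. The design text of the series also mentions a normalization by Twist1 expression. A singular value decomposition of the deposited values, less their group means, gave 8 non-zero directions of 10. The absent ones were the array batch and a second, continuous quantity, and the sources used here do not say what that quantity was. The Twist1 probe set itself still varied within groups (SD 0.218).

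Of the probe sets, 20852 carry 1 gene symbol and were used, 1440 carry several and 1519 are not listed in the platform annotation. Where a gene had several probe sets the one with the highest mean was kept (846 genes). With limma 3.58.1 (R 4.3.3), a linear model of group and batch covered the 15 arrays together, with moderation of the variances (9 nominal residual degrees of freedom, of which 8 carry data) and Benjamini-Hochberg adjustment over 19297 genes at 0.05. The degree of freedom without data makes the residual variances somewhat too small, and so the calls somewhat too easy. Batch A holds 8 arrays and batch B 7, and each holds all 5 groups. Dim genes were kept. Precision is set by the number of arrays. On simulated data with 200 changed genes the model recovered 96% of changes of 1 and 77% of changes of 0.5 in WT against VEC. In DQD against WT it recovered 100% and 71%. False calls were 10 of 183 in WT against VEC and 10 of 181 in DQD against WT. The deposited values lack some directions within groups and include WT replicate A, which stood apart. Whether the simulated recovery carries over to them was not tested.

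Named list genes are up to 4 of each list with the smallest p among those called in any comparison, and the 2 genes closest to each member called against VEC. For these 2, genes with predicted or clone names were passed over. Correlations between genes were taken after removing each batch's mean. The batches hold unequal numbers of each group, so that step also takes out a part of the group differences. The members and lists were chosen with earlier results of these data known. Some listed genes were not analysed here and are not reported. Alternatives were a model without batch, a replicate block, Twist1 as a covariate, only the arrays compared, quantile normalization again, median centring, no dim genes, all probe sets, a variance trend, weights per array, the batches one at a time, and omission of each array in turn. A model with the second removed quantity as a term was added after the data were seen. Promoters are RefSeq's, build GRCm38.p6, and figures were drawn with matplotlib 3.10.9.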

Additional observations from a re-analysis of the deposited data

How the results depend on the processing

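The 5 calls kept their sign under all 28 alternatives. The groups compared in each call did not overlap, so leaving out 1 array or fitting 1 batch could hardly reverse a sign. The kept sign is therefore little evidence of stability. The calls passed the limma threshold in 23 (Gsr, WT against VEC), 16 (Gsr, F191G against WT), 9 (Hmox1, AQA against WT), 24 (Gsr, DQD against WT) and 22 (Txnrd1, DQD against WT) of the alternatives. Of the 75 other differences, 11 passed under at least 1 alternative. Without a batch term the members called were 2 in AQA against WT and 1 in DQD against AQA, and this setting counts residual variation that the deposited values do not hold. With a replicate block beside batch, 0 were called in F191G against WT (4 at an unadjusted p under 0.05) and 0 in AQA against WT (3 unadjusted). The letters were largely absent from the deposited values (90.8%, 74.0% and 68.3% of the directions of A, B and C), so the block carries little. For the same reason the correlations between deviations of samples of 1 letter, from -0.85 to 0.13, cannot tell whether such samples were paired. With Twist1 as a covariate the counts were 0 in WT against VEC, F191G against WT and AQA against WT (2, 4 and 4 unadjusted). With only the arrays compared they were 0 in WT against VEC, F191G against WT, AQA against WT and DQD against WT (1, 2, 3 and 3 unadjusted), from fits with fewer arrays. Within batch A they were 0 in these 4 comparisons (1, 2, 2 and 3 unadjusted), and within batch B again 0 (2, 1, 5 and 2 unadjusted). Batch A holds 1 array each of DQD and F191G and batch B 1 each of VEC, WT and AQA. These fits thus assume that a lone array varies like the other groups, and their lack of calls says little. The 28 alternatives counted above include both fits. Quantile normalization again gave 2 in AQA against WT, as did leaving out the dimmest genes. Median centring gave 0 in AQA against WT (5 unadjusted) and 1 in DQD against AQA, and moved the median of all genes in DQD against WT from -0.07 to 0.04. Array weights gave 2 in DQD against VEC, 4 in AQA against WT and 3 in DQD against AQA. With the second removed quantity as a term, 0 were called in F191G against WT and AQA against WT (4 and 3 unadjusted), where 0.606% and 0% of all genes were called. Leaving out 1 array gave 0 to 2 in WT against VEC, 0 to 1 in DQD against VEC, 0 to 1 in F191G against WT, 0 to 2 in AQA against WT, 0 to 3 in DQD against WT and 0 to 2 in DQD against AQA. Other than by fewer arrays or genes tested, the cause of these shifts was not tested. The share of all genes called moved in the same settings, so a lost call does not set a member apart.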
